A study of Mus musculus with 9 samples.

Results

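Heat shock proteins and chaperonins, the genes whose products fold newly made proteins and refold damaged ones, were examined in group 2 innate lymphoid cells (ILC2s) of the mouse pancreas. The set held 35 genes chosen by symbol from known families: the inducible and constitutive HSP70 proteins and their J-domain partners, HSP90 and its cochaperones, mitochondrial chaperones, the 8 subunits of the cytosolic chaperonin ring, a pair of prefoldin subunits and the heat shock factors Hsf1 and Hsf2. Of the 35, 34 had a row among the 20732 genes of the count table and all 34 passed the filter on low counts. The expression of Hspa14 was not analysed here, and only its promoter entry was used. ILC2s are tissue-resident lymphocytes without antigen receptors that secrete type 2 cytokines. The IL-33 group (5 libraries) came from C57BL6/J mice given 200 ng of IL-33, a cytokine that activates ILC2s through the receptor ST2, on days 0 and 1. The PBS group (4 libraries, titled naive) came from C57BL6/J mice given the PBS vehicle. Pancreata were taken on day 5, and cells were gated as live and CD45+, without CD3, B220 or lineage markers, and KLRG1+. No further allele or agent is named for either group, and age is not stated.

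HSP70 proteins bind exposed hydrophobic stretches of unfolded clients in a cycle driven by ATP, and J-domain proteins deliver clients and trigger hydrolysis. Clients can pass on to HSP90, which finishes signalling proteins such as kinases and steroid receptors, or to the chaperonin ring (TRiC, also called CCT), a barrel of paired rings that encloses actin, tubulin and other proteins while they fold. Heat shock factor HSF1 is held inactive by chaperones in unstressed cells and, when released, drives the stress-inducible members from promoter elements made of inverted GAA repeats.

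Total counts lay between 14216976 and 21020023 per library. The ILC2 regulator Gata3 averaged 4030.0 ± 1586 CPM in IL-33 libraries and 4518 ± 579 CPM in PBS libraries (SD, n = 5 and 4). Of 15 listed genes typical of ILC2s, all tested, 3 were called higher (Il5, Il13 and Klrg1). From the same list 4 were called lower (Kit, Icos, Il7r and Il2ra), and 8, Gata3 among them, were not called. T cell genes (8 of 10 in the table, none at 0 in a whole group) took 0.0892 to 0.114% of counts in IL-33 libraries and 0.0568 to 0.135% in PBS libraries, and of 7 tested 2 were called lower and 0 higher. All CPM here are scaled by the trimmed mean of M-values (TMM). Genes of an acinar list (30 of 30 in the table, none at 0 in either group) took 0.375 to 12.2% of counts in IL-33 libraries and 0.131 to 41.9% in PBS libraries, with PBS replicate 4 the highest. Its TMM factor was 0.532, against 0.990 to 1.17 in the others. Erythroid genes (6 of 10 in the table) took 0.0424 to 0.365% of counts in IL-33 libraries and 0.0142 to 0.0343% in PBS libraries, and IL-33 replicates 1, 2 and 3 were the highest. These shares did not overlap between groups, and all 4 erythroid genes tested were called higher. Endothelial genes (12 of 12 in the table, none at 0 in a whole group) took 0.00457 to 0.0102% of counts in IL-33 libraries and 0.00902 to 0.0232% in PBS libraries, with 3 of 12 called lower. Of the fibroblast genes 1 of 3 tested was called lower, and of the B cell genes 1 of 2 tested was called higher. The part of these cell types in the results was not tested except by leaving libraries out. The design text counts 5 PBS and 4 IL-33 mice, while the labels give 4 PBS and 5 IL-33 libraries. Whether each library is a separate mouse is not stated beyond this count. The p-values therefore cover only the spread between libraries, part of which may be technical.

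In IL-33 libraries 5 of the 8 subunits of the cytosolic chaperonin ring rose, by 1.29-fold to 1.69-fold, and so did Hspe1, the lid of the mitochondrial chaperonin. Dnaja1, a J-domain partner of HSP70, had the most negative change of the 34 and fell by 1.55 on the log2 scale, and Hsf1 fell as well. The stress-inducible members, Hspa1a and Hspa1b among them, differed by 2.45-fold to 18.1-fold between the lowest and highest library of the same group, and none was called. By the edgeR quasi-likelihood test with Benjamini-Hochberg adjustment over 14405 genes, at an adjusted p of 0.05, 6 members rose, 2 fell and 26 were not called. Over all genes tested, 25.2% were called, 13.7% higher and 11.6% lower, against 23.5% of the 34 members, so the members were called at about the rate of all genes. The median log2 change was 0.11 over the members and -0.05 over all genes tested. The 8 called members were also the 8 whose groups did not overlap, 6 higher and 2 lower, beside 15.3% and 10.8% of all genes. At an unadjusted p of 0.05, 13 members passed. The share of all genes passing that threshold was not counted. Counts at it, here and for the smaller sets below, therefore cannot be set beside the 25.2%. In bulk RNA, fewer cells that carry a transcript and less of it per cell cannot be told apart.

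**Figure D1:**
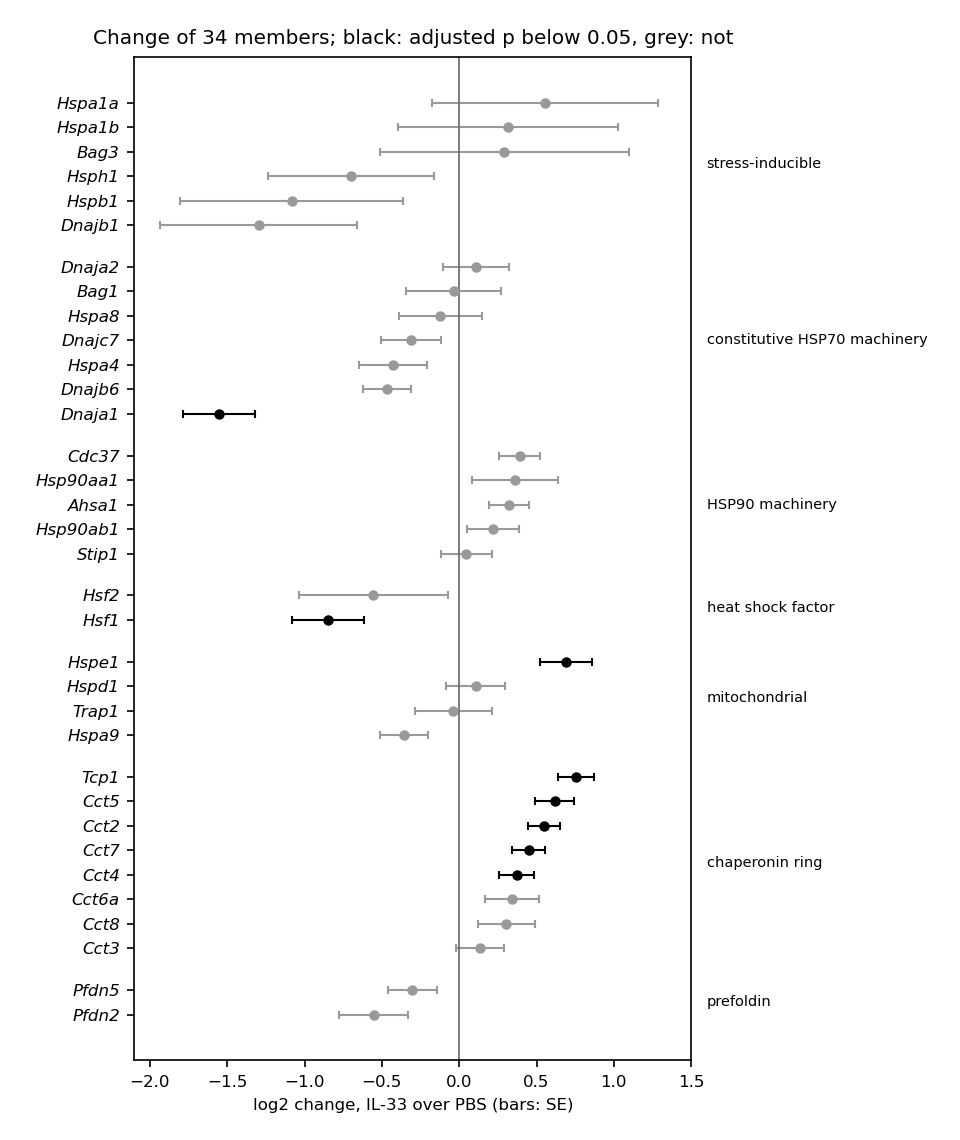
Log2 change (IL-33 over PBS, x axis) of the 34 members tested, grouped by role down the page, with bars for the SE of the edgeR fit. Black points passed an adjusted p of 0.05 and grey points did not: the 8 chaperonin ring subunits all lie right of 0, Dnaja1 lies farthest left at -1.55, and the stress-inducible members have the widest bars.

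Hsf1 encodes the main activator of the heat shock response and fell in IL-33 libraries. Hsf1 (chr15:76477422-76501913, plus strand, GRCm38) had 34.97, 51.4, 61.8, 49.8 and 37.9 CPM in IL-33 replicates 1 to 5, against 76.2, 67.7, 124 and 71.9 CPM in PBS replicates 1 to 4. Every IL-33 library lay below every PBS library, and PBS replicate 3 stood above the rest of its group. The log2 change was -0.85 (SE 0.23, edgeR adjusted p = 0.0239), with means of 47.2 ± 10.9 CPM in IL-33 libraries and 85.0 ± 26.3 CPM in PBS libraries (SD, n = 5 and 4). The call was lost without PBS replicate 3 (log2 change -0.61, edgeR adjusted p = 0.0569), without IL-33 replicate 1 (0.0514) or 5 (0.0568), and with the trend of change on gene length and GC content removed (-0.59, 0.123). It was also lost, at a change of similar size, with library size in place of TMM (-0.75, 0.156) and without IL-33 replicates 1, 2 and 3 together (-0.94, 0.114). Hsf2 encodes a related factor best known from development. Per kb of transcript its mean level was 1.81 CPM in IL-33 libraries and 2.66 CPM in PBS libraries, below Hsf1 at 22.6 CPM per kb in IL-33 libraries and 40.8 CPM per kb in PBS libraries. It had 6.91, 4.87, 3.21, 4.67 and 3.95 CPM in IL-33 libraries, against 13.1, 8.08, 3.496 and 3.05 CPM in PBS libraries. The groups overlapped, and the log2 change was -0.55 (SE 0.48, edgeR adjusted p = 0.435).

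The letters that heat shock factors are known to bind were looked for in RefSeq promoter windows, 250 bases before to 50 after a gene's start, on GRCm38.p6. The motifs searched were GAANNTTC and TTCNNGAA, each of which reads the same on both strands. Where they share 3 letters they form 3 alternating repeats. Of the members, 29 matched an entry, with 39 windows, some of which overlap each other. Either motif was in 15 of the 39 windows (38.5%, 13 genes), against 15.1% of all 32851 windows. The 3 repeats were in 6 member windows (15.4%, 4 genes), against 0.603% of all windows. Those 6 count some stretches more than once, since the windows of Dnajb6, those of Hsph1, and those of Hspd1 and Hspe1 overlap. By gene, either motif was in 13 of 29 members and 4587 of 27025 genes. The 3 repeats were in 4 of 29 members and 179 of 27025 genes. Within the 250 bases before the start alone, the shares were 33.3% of member windows and 12.8% of all windows. A match is a description of letters and not a bound site. No entry was given for Hspa8, Hspa9, Hsp90aa1, Hsp90ab1, Hsf1 and Cct4.

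The 250 bases before the starts are printed for the neighbouring genes Hspa1a (chr17:34972157-34972406, minus strand) and Hspa1b (chr17:34959239-34959488, minus strand). The ratio of Hspa1a to Hspa1b counts ran from 0.802 to 1.18 over the libraries, and how reads were split between them is uncertain. The windows agree at 247 of 250 bases, and each holds 1 motif, in capitals, that begins 104 bases before the start. Stretches of 30 bases follow from other members: Hsph1 (chr5:149636279-149636308, minus strand, the motif beginning 15 bases after the start), Hspe1 (chr1:55088053-55088082, plus strand, 89 bases before), Dnajb6 (chr5:29735844-29735873, plus strand, 46 before), Dnaja1 (chr4:40722333-40722362, plus strand, 124 before) and Cct5 (chr15:31601862-31601891, minus strand, 34 before). They were chosen as windows that hold the letters, from members that rose (Hspe1, Cct5), fell (Dnaja1) or were not called (Hsph1, Dnajb6). The windows of Tcp1 and Cct7, which rose, and of the inducible Dnajb1, which was not called, held neither motif. Dnaja1 and Cct5 also have windows at other starts, and these held neither motif. Capitals mark GAANNTTC or TTCNNGAA, and a longer run in capitals is motifs that share letters. All are from RefSeq and read 5′ to 3′ along the gene's strand.
Hspa1a: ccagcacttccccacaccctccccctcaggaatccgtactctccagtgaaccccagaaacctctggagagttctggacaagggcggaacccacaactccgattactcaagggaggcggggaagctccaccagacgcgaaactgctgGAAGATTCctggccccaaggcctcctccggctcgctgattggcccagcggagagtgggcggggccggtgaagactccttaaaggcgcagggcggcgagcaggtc
Hspa1b: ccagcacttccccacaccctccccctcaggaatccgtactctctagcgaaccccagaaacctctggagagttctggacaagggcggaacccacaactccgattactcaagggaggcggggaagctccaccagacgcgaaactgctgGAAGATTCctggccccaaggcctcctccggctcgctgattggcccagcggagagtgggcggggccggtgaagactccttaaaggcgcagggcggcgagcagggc
Hsph1: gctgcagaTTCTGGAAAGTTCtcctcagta
Hspe1: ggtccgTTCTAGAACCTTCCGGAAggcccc
Dnajb6: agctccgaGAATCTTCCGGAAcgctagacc
Dnaja1: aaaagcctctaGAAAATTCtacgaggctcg
Cct5: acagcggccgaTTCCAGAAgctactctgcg

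The 6 stress-inducible members (Hspa1a, Hspa1b, Dnajb1, Hsph1, Hspb1 and Bag3), the usual targets of HSF1, spread widely within both groups. None was called by edgeR, none passed an unadjusted p of 0.05, and none was called by limma voom with sample weights, limma-trend or the DESeq2 Wald test, which gave Hspb1 no adjusted p. Hspa1a, an inducible HSP70, had 111, 795, 604, 90.5 and 434 CPM in IL-33 replicates 1 to 5, against 264, 519, 55.8 and 269.8 CPM in PBS replicates 1 to 4. Its near-copy Hspa1b had 105, 725, 511, 77.7 and 368 CPM in IL-33 replicates 1 to 5, against 277, 543, 69.5 and 258 CPM in PBS replicates 1 to 4. For both, IL-33 replicates 1 and 4 and PBS replicate 3 were low and IL-33 replicate 2 was the highest, so the groups overlapped over most of their range. The log2 change was 0.55 for Hspa1a (SE 0.73, edgeR adjusted p = 0.619) and 0.32 for Hspa1b (SE 0.71, edgeR adjusted p = 0.779). With both rows summed it was 0.44 (edgeR adjusted p = 0.695), and the change of Hspa1b took the opposite sign without PBS replicate 3 (-0.0074) or IL-33 replicate 2 (-0.11).

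Reads of the HSP70 pair are hard to assign, since their coding sequences are 99.5% identical and 47.1% of the 100-base windows of Hspa1a also occur in Hspa1b. The ratio of Hspa1a to Hspa1b counts was 1.07 to 1.18 in IL-33 libraries, against 0.802 to 1.05 in PBS libraries, without overlap. It is uncertain how the authors' counting split reads between them. The constitutive Hspa8 stands apart, at 74.8% identity to Hspa1a with no shared 100-base window.

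The other inducible members had negative changes or low counts, without a call. Dnajb1, the J-domain partner of inducible HSP70, ranged from 171 to 1146 CPM in IL-33 libraries and from 433 to 2449.6 CPM in PBS libraries, with a change of -1.30 on the log2 scale (SE 0.64, edgeR adjusted p = 0.168). Hsph1, a large HSP70 relative that exchanges its nucleotide, ranged from 56.2 to 138 CPM in IL-33 libraries and from 30.3 to 277 CPM in PBS libraries, with a change of -0.70 on the log2 scale (SE 0.54, edgeR adjusted p = 0.378). The small heat shock protein gene Hspb1 lay between 4.29 and 14.4 CPM in IL-33 libraries and between 4.70 and 46.0 CPM in PBS libraries. Its log2 change of -1.08 turned to 0.36 without PBS replicate 4, the library richest in acinar genes. Bag3, a cochaperone of HSP70, lay between 2.87 and 13.8 CPM in IL-33 libraries and between 0.861 and 15.6 CPM in PBS libraries (log2 change 0.29).

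Summed over the 6 stress-inducible members, the level was 485, 2530.3, 2418, 414 and 1289.5 CPM in IL-33 libraries, against 2294, 3804, 596 and 1715 CPM in PBS libraries. The ratio of the group means was 0.679, and 0.548 to 0.930 when each library was left out in turn. The coefficient of variation of these members was 39.2 to 77.5% in IL-33 libraries and 62.3 to 127% in PBS libraries. Ring subunits, by contrast, had 5.96 to 18.9% in IL-33 libraries and 9.54 to 24.96% in PBS libraries. Over the 3403 genes with a mean of at least 50 CPM the quartiles were 11.5, 16.2 and 22.2% in IL-33 libraries and 13.4, 19.97 and 27.9% in PBS libraries. Highest over lowest library was 8.79 for Hspa1a in the IL-33 group and 9.30 in the PBS group. Hspa1a, Hspa1b, Dnajb1 and Hsph1 shared their extremes: IL-33 replicates 1 and 4 were the lowest pair and 2 and 3 the highest pair, and PBS replicate 3 was the lowest and 2 the highest library. The inducible Hspb1 and Bag3 did not share all of these extremes, while Hsp90ab1, not counted as inducible here, did. PBS replicate 3 was also the lowest and 2 the highest library for Hspa8, Hsp90aa1, Hspd1, Hspe1 and Tcp1.

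**Figure D2:**
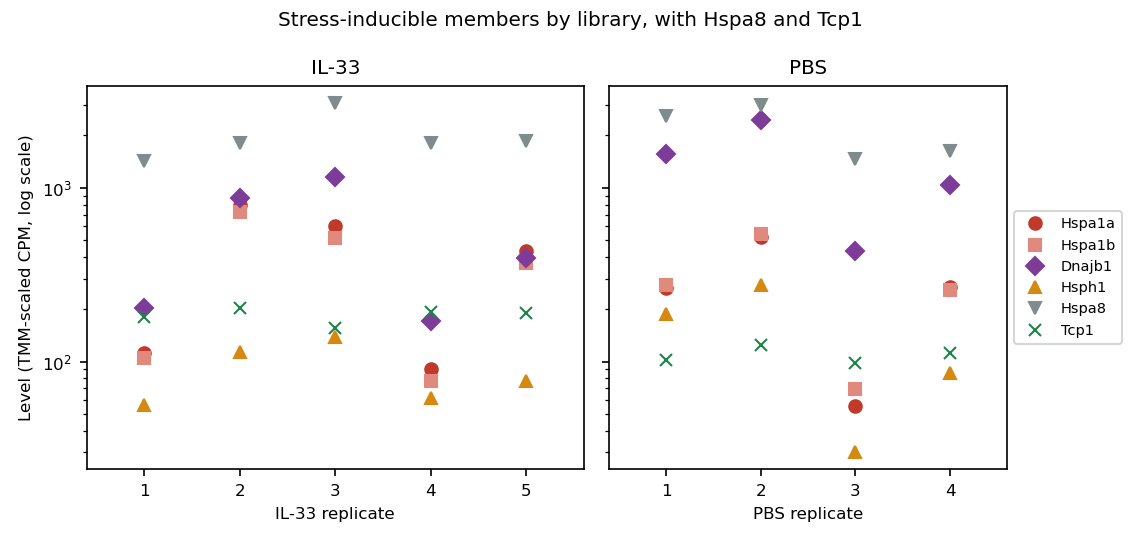
Level (TMM-scaled CPM, log scale) of 4 stress-inducible members, the constitutive Hspa8 and the ring subunit Tcp1 in each IL-33 replicate (left) and PBS replicate (right), 1 point per gene and library. Hspa1a spans 90.5 to 795 CPM in IL-33 libraries and 55.8 to 519 CPM in PBS libraries, while Tcp1 spans 155 to 203 CPM in IL-33 libraries and 97.99 to 125 CPM in PBS libraries.

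Genes of the immediate early response, which respond within minutes to handling and signalling, were set beside these values. Of 20 such genes, all in the table and none at 0 in a whole group, 12 were lower and 0 higher by the edgeR test. Their summed level was 11921 to 16590.4 CPM in IL-33 libraries and 27674 to 34249.8 CPM in PBS libraries. In the IL-33 group, replicates 1 and 4 were the lowest pair for both the immediate early and the inducible sum, while replicate 5 was the highest for the immediate early sum and replicate 2 for the inducible sum. In the PBS group, replicate 3 was the second highest for the immediate early sum and the lowest for the inducible sum. Their part in the levels of the chaperones, Dnaja1 included, was not tested.

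Among the constitutive HSP70 genes and their partners, Dnaja1 fell and the other 6 tested were not called. Dnaja1 (chr4:40722150-40737149, plus strand) encodes a J-domain cochaperone of cytosolic HSP70 that binds clients of its own. It had 240.0, 225, 363, 212 and 242 CPM in IL-33 replicates 1 to 5, against 919.5, 1005, 547 and 538 CPM in PBS replicates 1 to 4. No IL-33 library reached the lowest PBS library, although IL-33 replicate 3 stood above the others of its group. The means were 256 ± 61.1 CPM in IL-33 libraries and 752 ± 245 CPM in PBS libraries (SD, n = 5 and 4), a 2.93-fold lower level (log2 change -1.55, SE 0.24, edgeR adjusted p = 0.00155). The call held in all 22 alternatives run for this gene, with log2 changes between -1.72 and -1.13. Its exons overlap those of Smu1 on the opposite strand over 7.05% of their length and of the long non-coding Gm6297 over 2.89%, and because no source says whether strand was kept, reads there cannot be told apart.

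Hspa8 encodes HSC70, the constitutive partner of Dnaja1. It had 1418, 1819, 3057, 1819 and 1846 CPM in IL-33 libraries, against 2585, 2994, 1460.4 and 1631 CPM in PBS libraries. Both groups covered the same range, and the log2 change was -0.12 (SE 0.27, edgeR adjusted p = 0.775). The ratio of Dnaja1 counts to Hspa8 counts, not corrected for length, was 0.169, 0.124, 0.119, 0.116 and 0.131 in IL-33 replicates 1 to 5, against 0.356, 0.336, 0.375 and 0.330 in PBS replicates 1 to 4. The ratio did not overlap between groups, with means of 0.132 ± 0.0217 in IL-33 libraries and 0.349 ± 0.0205 in PBS libraries (SD, n = 5 and 4).

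Dnajb6, a J-domain protein known for keeping aggregation-prone clients soluble, came closest to a call among the rest. It lay between 66.2 and 94.97 CPM in IL-33 libraries and between 85.8 and 123 CPM in PBS libraries (log2 change -0.47, SE 0.15, edgeR adjusted p = 0.0519). It passed with the DESeq2 Wald test (adjusted p = 0.0109), with voom (0.0269) and without PBS replicate 4 (edgeR adjusted p = 0.0204) or IL-33 replicate 1 (0.0412). Hspa4, a nucleotide exchange factor of the HSP70 family, had a log2 change of -0.43, and Dnajc7, which shuttles clients between HSP70 and HSP90, one of -0.31. Values for Dnaja2, a J-domain relative of Dnaja1, and for the nucleotide exchange factor Bag1 were 0.11 and -0.04. By edgeR, adjusted p-values of these 4 lay between 0.189 for Hspa4 and 0.943 for Bag1.

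Of the 4 mitochondrial chaperones, Hspe1 rose and Hspd1, Hspa9 and Trap1 were not called. Hspe1 (chr1:55088132-55091307, plus strand) encodes HSP10, the lid that closes the HSP60 barrel made by Hspd1. Hspe1 had 134, 174, 110.3, 120.4 and 126 CPM in IL-33 replicates 1 to 5, against 77.7, 106, 72.5 and 73.7 CPM in PBS replicates 1 to 4. All IL-33 libraries lay above all PBS libraries, narrowly so for IL-33 replicate 3 over PBS replicate 2, which stood above the rest of its group. The means were 133 ± 24.5 CPM in IL-33 libraries and 82.4 ± 15.8 CPM in PBS libraries, a 1.61-fold higher level (log2 change 0.69, SE 0.17, edgeR adjusted p = 0.0156). With the trend of change on gene length and GC content removed, the change of this short gene was 0.44 (edgeR adjusted p = 0.0921). The call was also lost, at a change of similar size, with library size in place of TMM (0.79, 0.115) and without IL-33 replicates 1, 2 and 3 together (0.59, 0.117). Over all genes sorted by exon length into 5 groups of like size, the median log2 change ran between 0.40 for the shortest genes and -0.47 for the longest.

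Hspd1 (chr1:55077835-55088243, minus strand) lies head to head with Hspe1. Its RefSeq starts lie at 95 and -216 bases from the start of Hspe1 in coordinates, and the promoter windows of the second and of Hspe1 share 285 bases, the motifs printed for Hspe1 among them. Exons of the pair overlap over 112 bases. Hspd1 had 201, 245, 204, 219 and 202 CPM in IL-33 libraries, against 245, 249.8, 129.6 and 172 CPM in PBS libraries. IL-33 libraries sat inside the wider PBS range, and the log2 change was 0.11 (SE 0.19, edgeR adjusted p = 0.719). Hspe1 counts over Hspd1 counts came to 0.540 to 0.708 in IL-33 libraries and 0.317 to 0.559 in PBS libraries, which overlapped through PBS replicate 3. Per kb of transcript the mean ratio was 1.94 ± 0.229 in IL-33 libraries and 1.35 ± 0.310 in PBS libraries (SD, n = 5 and 4).

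Hspa9, the mitochondrial HSP70 that pulls imported proteins inward, had a change of -0.36 on the log2 scale (SE 0.16, edgeR adjusted p = 0.123). It was called without PBS replicate 4 (-0.49, edgeR adjusted p = 0.0368). Its IL-33 libraries were tightly grouped at 87.0 to 101 CPM, against 91.2 to 163 CPM in PBS libraries. Trap1, the mitochondrial HSP90, lay between 46.7 and 125 CPM in IL-33 libraries and between 79.4 and 115 CPM in PBS libraries (log2 change -0.04, edgeR adjusted p = 0.926).

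**Figure D3:**
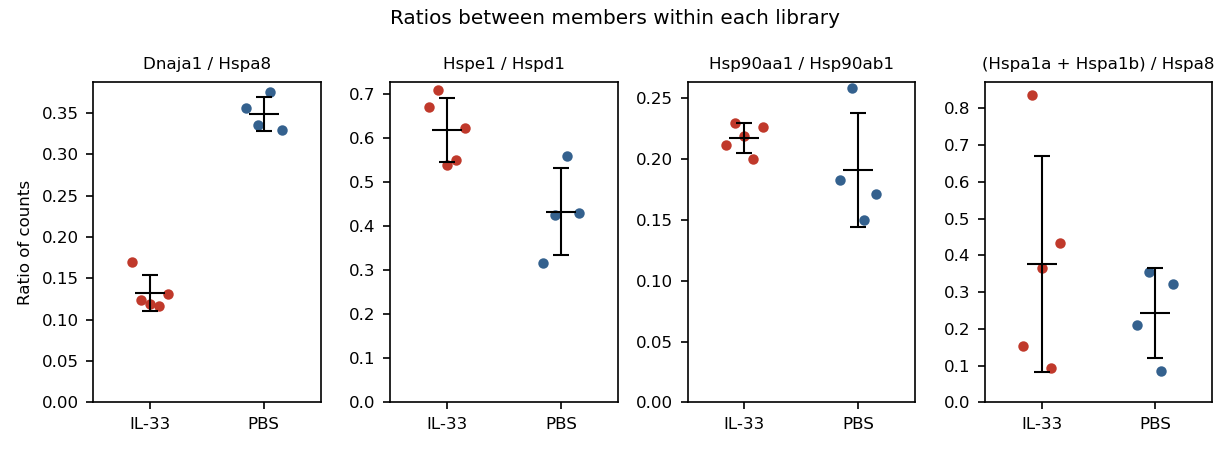
Ratio of counts between members within each library (y axis), 1 point per library, with mean and SD, IL-33 left and PBS right in each panel. Dnaja1 over Hspa8 separates the groups (0.116 to 0.169 in IL-33 libraries, 0.330 to 0.375 in PBS libraries), while Hspe1 over Hspd1, Hsp90aa1 over Hsp90ab1 and the summed inducible HSP70 pair over Hspa8 overlap.

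Of the 8 subunits of the cytosolic chaperonin ring, Tcp1, Cct5, Cct2, Cct7 and Cct4 rose in IL-33 libraries, and the other 3 had positive changes that were not called. Summed over the subunits, the level was 1799.6, 2035, 1764, 2051 and 1876 CPM in IL-33 replicates 1 to 5, against 1461, 1409, 1401 and 1289 CPM in PBS replicates 1 to 4. The groups did not overlap, and their means of 1905 ± 133 CPM in IL-33 libraries and 1390.1 ± 72.4 CPM in PBS libraries stood 1.37-fold apart. Leaving out each library in turn gave 1.34 to 1.40, and library size in place of TMM gave 1.48.

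Tcp1 (chr17:12915701-12925067, plus strand), the alpha subunit that gave the complex its name, rose the most. It had 181, 203, 155, 192 and 189.9 CPM in IL-33 libraries, against 102, 125, 97.99 and 111 CPM in PBS libraries. Every IL-33 value was above the highest PBS value, and the change was 1.69-fold (log2 0.76, SE 0.12, edgeR adjusted p = 0.0017), called in all 22 alternatives. Exons of Tcp1 overlap those of Acat3 on the opposite strand over 11.4% of their length.

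Cct5 (chr15:31590800-31601804, minus strand), the epsilon subunit, had 333, 392.4, 384, 347 and 295 CPM in IL-33 libraries, against 274, 201, 227 and 211 CPM in PBS libraries. The lowest IL-33 library was above the highest PBS library, PBS replicate 1, by a small margin (log2 change 0.62, SE 0.13, edgeR adjusted p = 0.00672). Cct2 (chr10:117051001-117063814, minus strand), the beta subunit, had 259, 249, 223, 251 and 259 CPM in IL-33 libraries, against 180.3, 152, 194 and 153 CPM in PBS libraries. It was the steadiest subunit within the IL-33 group, and the groups stood clear of each other (log2 change 0.55, SE 0.11, edgeR adjusted p = 0.00512).

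Cct7 (chr6:85451514-85468475, plus strand), the eta subunit, had 403, 466, 360.0, 457 and 412 CPM in IL-33 libraries, against 289.8, 302, 287 and 350.3 CPM in PBS libraries. IL-33 replicate 3 and PBS replicate 4 nearly met (log2 change 0.45, SE 0.11, edgeR adjusted p = 0.0146), and without IL-33 replicate 4 the edgeR adjusted p was 0.0505. Cct4 (chr11:22990519-23003780, plus strand), the delta subunit, had 225, 219, 237, 269 and 241 CPM in IL-33 libraries, against 199, 209, 165 and 163 CPM in PBS libraries. Its groups were close, and its call was the least stable of the ring (log2 change 0.37, SE 0.11, edgeR adjusted p = 0.0370). Of the 9 fits with a library left out, 7 took the edgeR adjusted p of Cct4 to between 0.0520 and 0.105 (those without PBS replicates 1, 3 and 4 and those without IL-33 replicates 1, 3, 4 and 5), and it was also not called with RLE size factors (0.0543) or voom (0.0501).

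The other subunits had overlapping groups and no call. Cct6a, the zeta subunit, lay between 80.1 and 123 CPM in IL-33 libraries and between 63.9 and 90.4 CPM in PBS libraries (log2 change 0.34, edgeR adjusted p = 0.184). Cct8, the theta subunit, lay between 156 and 236 CPM in IL-33 libraries and between 116 and 209 CPM in PBS libraries (log2 change 0.31, edgeR adjusted p = 0.252). Cct3, the gamma subunit, lay between 152 and 199 CPM in IL-33 libraries and between 119.8 and 203 CPM in PBS libraries (log2 change 0.13, edgeR adjusted p = 0.570). Whether these 3 subunits moved differently from the other 5 was not tested. Without IL-33 replicates 1, 2 and 3, the libraries rich in erythroid genes, Tcp1 kept its call and edgeR adjusted p-values were 0.0566 for Cct2, 0.0637 for Cct7, 0.108 for Cct4 and 0.113 for Cct5, with log2 changes of 0.60, 0.51, 0.48 and 0.50. With library size in place of TMM, Tcp1 was the only member called higher, and this scaling moved the median of all genes by 0.13 on the log2 scale.

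**Figure D4:**
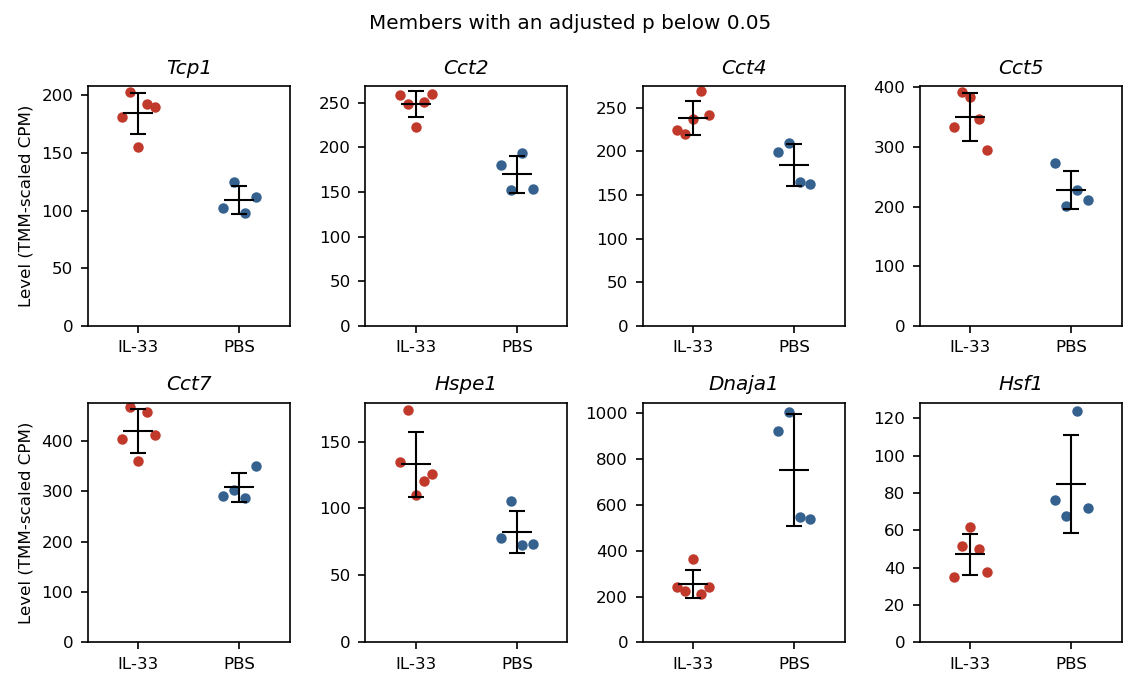
Level (TMM-scaled CPM, y axis from 0) of the 8 members with an edgeR adjusted p below 0.05, 1 point per library, with mean and SD, IL-33 (n = 5) left and PBS (n = 4) right. In all 8 panels the groups do not overlap: Tcp1, Cct2, Cct4, Cct5, Cct7 and Hspe1 are higher in IL-33 libraries, Dnaja1 and Hsf1 lower.

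The ring holds its subunits in equal number, and their transcript levels per kb of principal transcript were unequal. In IL-33 libraries the means were 189 ± 21.4 CPM per kb for Cct5, 172 ± 17.7 for Cct7, 127 ± 7.55 for Cct2 and 96.0 ± 7.83 for Cct4 (SD, n = 5). PBS libraries gave 123 ± 17.3 CPM per kb for Cct5, 126 ± 12.02 for Cct7, 86.7 ± 10.5 for Cct2 and 74.1 ± 9.51 for Cct4 (SD, n = 4). The lower part of the order held Cct3 at 88.2 ± 9.79, Cct8 at 80.7 ± 12.9, Tcp1 at 75.3 ± 7.36 and Cct6a at 39.5 ± 7.48 CPM per kb in IL-33 libraries. In PBS libraries Cct3 was at 80.4 ± 17.9, Cct8 at 65.3 ± 16.3, Tcp1 at 44.6 ± 4.90 and Cct6a at 31.1 ± 5.80 CPM per kb.

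In IL-33 libraries Cct5 and Cct7 did not differ beyond their SD, nor did neighbours in the run Cct4, Cct3, Cct8 and Tcp1. In PBS libraries the same held for Cct5 and Cct7 and for neighbours in the run Cct2, Cct3, Cct4 and Cct8. By principal transcript, Cct6a was the lowest subunit in all 9 libraries, and Cct5 or Cct7 the highest. Highest over lowest subunit mean was 4.79 in IL-33 libraries and 4.05 in PBS libraries. Tcp1 made up 8.68 ± 0.528% of the ring's summed level per kb in IL-33 libraries and 7.09 ± 0.981% in PBS libraries (SD, n = 5 and 4). These levels depend on the transcript taken for length. With the union of all exons, Cct6a had the lowest mean in both groups, but not beyond the SD. It was at 26.8 ± 5.07 CPM per kb against 27.4 ± 3.04 for Cct3 in IL-33 libraries. In PBS libraries it was at 21.1 ± 3.93 against 21.7 ± 2.38 for Tcp1. With that length, Cct7 ranked below Cct2 and Cct8 in both groups.

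**Figure D5:**
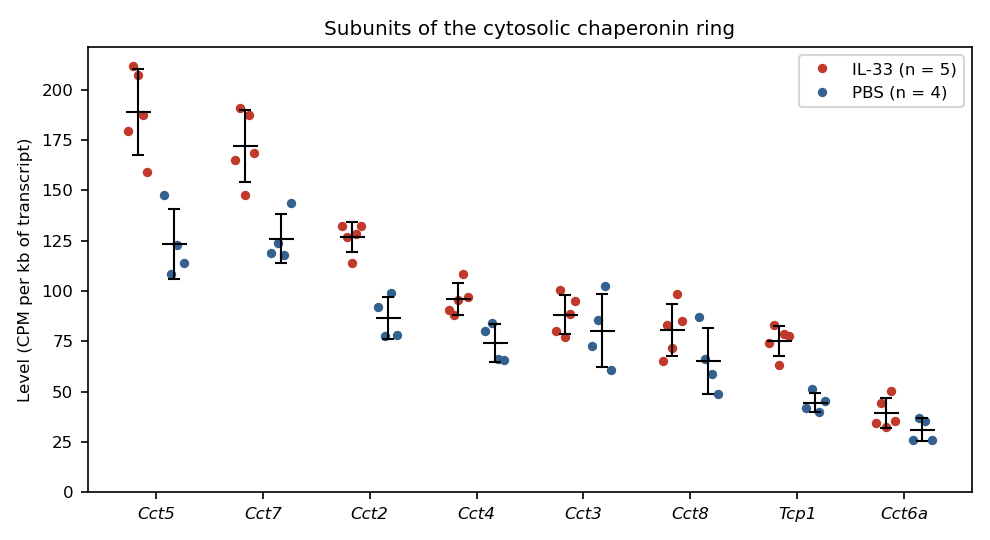
Level of each chaperonin ring subunit (CPM per kb of principal transcript, y axis from 0), 1 point per library, with mean and SD, IL-33 (n = 5) left of PBS (n = 4) for each subunit. Subunits run from Cct5 at a mean of 189 to Cct6a at 39.5 CPM per kb in IL-33 libraries.

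Genes of cell division were also higher in the same libraries. Of a list of 20 mitosis genes, none at 0 in a whole group, 19 rose by the edgeR test, and their summed level was 2350.1 to 3272 CPM in IL-33 libraries and 126 to 209 CPM in PBS libraries. Their part in the rise of the 5 ring subunits was not tested.

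The HSP90 genes and their cochaperones all had positive changes, that of Stip1 near 0 and of changing sign, but none of the 5 was called by edgeR. At an unadjusted p of 0.05, 2 of them passed (Ahsa1 and Cdc37), and by other tests the DESeq2 Wald test and limma-trend called 0 and voom called 1. Hsp90ab1, the constitutive cytosolic HSP90, had 2409, 3552, 2795, 2649 and 2762 CPM in IL-33 libraries, against 2794, 3019, 1924 and 2006 CPM in PBS libraries. Hsp90aa1, the more inducible form, had 509, 817, 612, 529 and 626 CPM in IL-33 libraries, against 512, 779, 289 and 344 CPM in PBS libraries. For both genes the groups overlapped, with PBS replicates 3 and 4 the low libraries. The log2 change was 0.22 for Hsp90ab1 (SE 0.17, edgeR adjusted p = 0.379) and 0.36 for Hsp90aa1 (SE 0.28, edgeR adjusted p = 0.374). Hsp90ab1 had the highest mean level per kb of the members, at 1124 ± 170.4 CPM per kb in IL-33 libraries and 967 ± 219 in PBS libraries. Hspa8 was next at 832 ± 259.6 in IL-33 libraries and 905 ± 309 in PBS libraries (SD, n = 5 and 4). In PBS libraries the pair did not differ beyond these SD. In IL-33 libraries the means lay further apart than either SD, with overlapping ranges (956 to 1410 for Hsp90ab1, 592 to 1277 for Hspa8). Hsp90aa1 counts over Hsp90ab1 counts were 0.200 to 0.230 in IL-33 libraries and 0.150 to 0.258 in PBS libraries.

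Cdc37, which brings kinases to HSP90, had a change of 0.39 on the log2 scale (SE 0.13, edgeR adjusted p = 0.0551), with 280.0 to 379.8 CPM in IL-33 libraries and 222 to 299 CPM in PBS libraries. It was called with voom (adjusted p = 0.0333) and without PBS replicate 3 (edgeR adjusted p = 0.0444) or IL-33 replicate 1 (0.0361), and with the length and GC trend removed (log2 change 0.72, 0.00622). Ahsa1, which speeds the ATPase of HSP90, had a change of 0.32 on the log2 scale (SE 0.13, edgeR adjusted p = 0.0978), with 99.1 to 141 CPM in IL-33 libraries and 84.1 to 109 CPM in PBS libraries. Stip1, the adaptor between HSP70 and HSP90, had a log2 change of 0.05 (edgeR adjusted p = 0.861), which turned to -0.0086 with voom and -0.19 with the length and GC trend removed.

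Prefoldin hands unfolded actin and tubulin to the chaperonin ring, and its 2 subunits here had negative changes without a call. Pfdn2 lay between 41.8 and 71.2 CPM in IL-33 libraries and between 58.6 and 105 CPM in PBS libraries (log2 change -0.55, SE 0.22, edgeR adjusted p = 0.0986). Pfdn5 lay between 173 and 271 CPM in IL-33 libraries and between 202 and 294 CPM in PBS libraries (log2 change -0.30, SE 0.16, edgeR adjusted p = 0.192). Pfdn2 alone passed an unadjusted p of 0.05 and the DESeq2 Wald test (adjusted p = 0.0466), voom and limma-trend called 0 of the 2, and with the length and GC trend removed both were called lower (log2 changes -0.73 and -0.72). Exons of Pfdn2 overlap those of Klhdc9 on the opposite strand over 27.6% of their length.

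A wider list of 68 other chaperones and cochaperones, 63 of them tested, had 7 genes called higher, 5 lower and 51 not called (19.0%, beside 25.2% of all genes, with a median log2 change of -0.13). With the DESeq2 Wald test 10 were called higher and 10 lower, beside 2231 higher and 2317 lower of all 14405 genes. The 4 with the smallest adjusted p among the higher were Fkbp8, a mitochondrial immunophilin, Dnajc9, a J-domain protein that binds histones, the prefoldin subunit Pfdn1 and the HSP70 relative Hspa4l. Fkbp8 averaged 196 ± 33.4 CPM in IL-33 libraries and 95.1 ± 26.8 CPM in PBS libraries (SD, n = 5 and 4), with a log2 change of 1.04 (edgeR adjusted p = 0.00577). Log2 changes were 0.71 for Dnajc9 (edgeR adjusted p = 0.00609), 0.81 for Pfdn1 (0.00756) and 1.26 for Hspa4l (0.0109). Of the partners of Pfdn1 in prefoldin, Pfdn2 and Pfdn5 had negative changes that were not called. Vbp1 (log2 change 0.50), Pfdn6 (0.27) and Pfdn4 (0.25) had positive changes that were not called either. Among the lower, Tomm34, a cochaperone of mitochondrial import, averaged 58.2 ± 4.80 CPM in IL-33 libraries and 115 ± 16.8 CPM in PBS libraries, with a log2 change of -0.98 (edgeR adjusted p = 6.5e-04). Ubqln4, a proteasome shuttle, had -0.86 (edgeR adjusted p = 0.0086), the J-domain gene Dnajb14 had -0.96 (0.0116) and Chordc1, an HSP90 cochaperone, had -0.65 (0.0118).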

How the data were processed

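RNA of ILC2s sorted from mouse pancreas was sequenced in 9 libraries, 5 of the IL-33 group and 4 of the PBS group, from 5 to 15 ng of RNA with a low-input kit and paired 150-nt reads, per the labels' protocols. The sample labels were followed for group sizes, since the design text gives 5 PBS and 4 IL-33. The authors deposited whole-number counts for Ensembl genes, and also normalized values, a signal that was found to be these counts over 1 constant per library. The submitters' processing notes name STAR 2.7.7a, Salmon 1.6.0, Trimmomatic 0.39, FastQC 0.11.9, DESeq2 and Picard, with the build GRCm38.p6. What each did, the annotation, strandedness and filters are not given in sources used here.

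Symbols matched 20571 of 20732 genes (99.2%). The deposited counts were tested in R 4.3.3 by the robust quasi-likelihood F-test of edgeR 4.0.16 (two-sided) after TMM scaling and filterByExpr (minimum count 10). Adjustment was by Benjamini-Hochberg over 14405 genes, with calls at 0.05, and the common biological coefficient of variation came to 0.560. Levels are TMM-scaled CPM. Sums, ratios and levels per kb are descriptions without a test. Coordinates and lengths are from GENCODE M21 (GRCm38). Coding sequences were compared with Biopython 1.88, and promoters are RefSeq windows. No 2 replicates were alike within counting noise: over 16 pairs in groups, chi-square per degree of freedom was at least 56.4. The fit was checked on simulated data. Alternatives used limma 3.58.1 (voom with sample weights, or trend on log2 of the signal plus 1) and DESeq2 1.42.0, other scalings and filters, a loess (span 0.3) on gene length and GC content, a replicate block, and libraries left out.

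The members and gene lists were chosen with earlier results of these data known, and so was the choice to leave out IL-33 replicates 1, 2 and 3, which were rich in beta-globin reads. The rule for named genes prints every library for called members and for Hspa1a, Hspa1b, Hspa8, Hsp90aa1, Hsp90ab1, Hspd1, Hspe1, Hsf1 and Hsf2, other members by change or range, and the 4 other chaperones with the smallest adjusted p in each direction. The union of exons as gene length, and the naming of Vbp1, Pfdn6 and Pfdn4, were added after seeing the data.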

Additional observations from a re-analysis of the deposited data

Results flagged for a closer look

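Among 68 pairs of member and group looked at, 8 had a library far from the others of its group, where chance gives about 1 in 20. In the IL-33 group, replicate 3 had 3057 CPM of Hspa8, against 1418 to 1846 CPM in the others, and 363 CPM of Dnaja1, against 212 to 242 CPM. IL-33 replicate 1 was low for Dnaja2, a J-domain gene, with 57.9 CPM against 85.6 to 95.4 CPM, and for the HSP70 to HSP90 adaptor Stip1, with 125 CPM against 152 to 162 CPM. In the PBS group, replicate 2 was high for Hspe1, with 106 CPM against 72.5 to 77.7 CPM in the others, and replicate 3 for Hsf1, with 124 CPM against 67.7 to 76.2 CPM. PBS replicate 4 had 46.0 CPM of Hspb1 against 4.70 to 6.55 CPM, and PBS replicate 1 had 115 CPM of Trap1 against 79.4 to 82.8 CPM. Of the called members, Hsf1 lost its call without its high library and Dnaja1 and Hspe1 kept theirs.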

How the results depend on the processing

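Of 22 alternatives per member, Tcp1 and Dnaja1 were called in all, and the other called members kept their direction in each. The 6 members called higher became 1 with library size in place of TMM, 2 with the replicate block, 3 at a threshold of 0.01 and 1 without IL-33 replicates 1, 2 and 3, the libraries rich in erythroid genes. The 2 called lower became 1 under each of these and 4 with the DESeq2 Wald test. Leaving out each library in turn gave 4 to 6 members higher and 1 to 4 lower, with 4 without PBS replicate 4 and 1 without PBS replicate 3 or IL-33 replicate 5. Of the other chaperones, the 7 called higher became 10 with DESeq2, 4 with library size, 0 with the replicate block, 3 at 0.01 and 2 without the 3 libraries. Their 5 called lower became 8 with RLE size factors, a minimum of 5 CPM (4 libraries), voom or limma-trend, 10 with DESeq2, 0 with library size, 3 with the block, and 2 at 0.01 or without the 3 libraries. Leaving out libraries gave 5 to 8 higher and 4 to 8 lower, with 8 lower without PBS replicate 4. Over all genes, the 1967 called higher became 1332 with library size, 2231 with DESeq2, 791 with the block and 1019 at 0.01. They became 732 without the 3 libraries and 1445 to 1969 by leaving out 1 library. The 1666 called lower became 644 with library size, 2317 with DESeq2, 666 with the block and 767 at 0.01. Without the 3 libraries they became 664, and 1193 to 1726 by leaving out 1. The summed ring stood 1.37-fold higher, 1.48 with library size and 1.34 to 1.40 by leaving out 1 library, and the summed inducible members 0.548 to 0.930. The causes were not tested.

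Directions that turned were all of members not called. On the log2 scale, Hspa1a had -0.070 and Hspa1b -0.35 without the 3 libraries. Hspa1b also had -0.082 with the replicate block, -0.086 with the length and GC trend removed, and -0.11 (without IL-33 replicate 2) to 0.83 by leaving out 1 library. By leaving out 1 library, Hspa8 ran between -0.33 and 0.075, Hspd1 between -0.053 and 0.24, Hspb1 between -1.46 and 0.36, Dnaja2 between -0.076 and 0.22, Bag1 between -0.24 and 0.14, Bag3 between -0.081 and 0.94, Stip1 between -0.082 and 0.18 and Trap1 between -0.22 and 0.12. Further, Hsf2 had 0.039 and Stip1 -0.19 with the length and GC trend removed, Bag1 had 0.0035 and Trap1 0.073 with library size, Bag1 had 0.13 with the replicate block, Stip1 had -0.0086 with voom and Trap1 had 0.29 without the 3 libraries.

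Deviations of same-numbered libraries from their group means had correlations of -0.03, -0.06, -0.03 and 0.07, while differently numbered pairs reached -0.18 and 0.19. Such correlations cannot decide whether the numbers pair the samples, since deviations particular to 1 library can hide a shared one. With the replicate block, number 5 occurs in the IL-33 group alone. With the block, edgeR adjusted p-values were 0.0741 for Cct2, 0.194 for Cct4, 0.0510 for Cct5, 0.0773 for Cct7 and 0.0632 for Hsf1. Removing acinar and endocrine genes, or summing Hspa1a and Hspa1b, moved no count of member calls by over 1.5 times. Low counts limit Bag3, Hspb1 and Hsf2, which averaged under 16 CPM in both groups.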
